A study of Mus musculus with 38 samples.

Results

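The 10 genes described here are 2 chemokines and 8 GTPases that cells make in response to interferon gamma. They are Cxcl9 and Cxcl10, the guanylate-binding proteins Gbp2, Gbp3, Gbp4, Gbp6 and Gbp7, and the immunity-related GTPases Irgm1, Irgm2 and Igtp. They were a given list of symbols, and 10 of the 55416 genes in each of 3 tables of read counts matched it. Cxcl9 and Cxcl10 were chosen by their measured levels, which were lower on black rice in the AOM and FMT tables. Those 2 diet differences are therefore a description with no test, here for all 10 genes.

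The libraries were bulk messenger RNA of mouse intestinal tract, 38 in all, from a study of mice with colorectal cancer on a black rice or a control diet, and the Apc columns also carry the word colon. The Apc table held 6 groups of 3 libraries: black rice, control and WT, each with the letter F or M in its titles. The WT titles carried the word Apc too, and WT libraries had no treatment label. In the AOM table, black rice and control libraries with the letter F or M made 4 groups of 3. The third table, called FMT here after letters in its name, held 4 black rice and 4 control libraries without such a letter. The labels used here spelled out none of Apc, AOM and FMT, and they gave no strain, age, allele, dose or feeding time. They did not say that libraries came from separate animals, so every p-value below measures the spread between these libraries, which may be technical.

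Levels are in CPM, the counts of a gene as a share of all counts in its library, scaled to the same library size. Depth ran from 44796449 to 61888458 counts a library in the Apc table and from 66610853 to 91051239 in the FMT table. Among the AOM libraries, 1 stood apart, black rice F replicate 3, which had the fewest at 5373366 counts, and whose 8 hepatocyte markers summed to 209145 CPM. The highest such sum in the other 11 AOM libraries was 124 CPM. That library was left out, so AOM values are from 11 libraries unless stated. The 14 intestinal epithelial markers were all above 0 in the 37 libraries used and summed to between 14223 and 46458 CPM.

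Interferon gamma comes mainly from T cells and NK cells. Its receptor signals through the kinases JAK1 and JAK2, the response acts on GAS sites in promoters and induces IRF1, and IRF1 in turn binds ISRE sites. CXCL9 and CXCL10 are secreted and draw in cells with the receptor CXCR3, while the guanylate-binding proteins and the immunity-related GTPases act inside cells on the membranes around bacteria and parasites. ISRE sites are also bound by ISGF3, a complex with IRF9 that type I interferons activate, so several of these genes answer to both kinds of interferon.

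The promoters are shown because the 10 genes were high or low in the same libraries of the Apc table, as described further on. A part of the motifs in that shared variation was not tested. RefSeq starts of GRCm38.p6 gave a window of 250 bases before the start for 8 of the 10 genes. A GAS was searched as TTCNNNGAA and an ISRE core as a pair of GAAA blocks with any 2 bases between them, on both strands. An ISRE core was found in 7 of the 8 genes, against 2.98% of 32851 windows of that length, and a GAS in 3 of the 8, against 7.02%. Gbp7, Irgm2 and Igtp held both, as did 0.332% of all windows. A match describes the letters and is not a measured binding site. In the stretches below, written 5′ to 3′ on the strand of the gene, capitals mark the matches.
Cxcl10, chr5:92349063-92349132, minus strand: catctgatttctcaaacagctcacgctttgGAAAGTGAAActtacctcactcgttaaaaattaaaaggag
Gbp3, chr3:142559969-142560025, plus strand: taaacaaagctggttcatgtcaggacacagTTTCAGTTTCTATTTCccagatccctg
Gbp7, chr3:142530200-142530322, plus strand: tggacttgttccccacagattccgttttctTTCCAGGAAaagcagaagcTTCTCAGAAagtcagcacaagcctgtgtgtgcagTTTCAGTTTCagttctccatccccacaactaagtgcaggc
Irgm2, chr11:58214872-58214952, plus strand: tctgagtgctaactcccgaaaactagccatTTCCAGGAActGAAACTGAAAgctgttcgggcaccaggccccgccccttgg
Igtp, chr11:58199481-58199555, plus strand: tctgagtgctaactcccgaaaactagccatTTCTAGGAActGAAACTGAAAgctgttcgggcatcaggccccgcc
Gbp2, chr3:142620594-142620623, plus strand: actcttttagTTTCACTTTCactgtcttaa
Irgm1, chr11:48871431-48871460, minus strand: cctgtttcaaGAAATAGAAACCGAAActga
Cxcl9, chr5:92328080-92328179, minus strand: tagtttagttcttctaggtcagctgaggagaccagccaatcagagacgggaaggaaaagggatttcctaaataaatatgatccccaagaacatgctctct
The stretches of Irgm2 and Igtp, which are neighbours on chromosome 11, were identical at 73 of the 75 bases compared, and each held 1 GAS followed by 1 ISRE core. Gbp7 had 2 GAS matches and 1 ISRE core on chromosome 3. In Gbp3 and in Irgm1, 2 ISRE matches overlapped each other. The Cxcl10 match lay farthest out, 213 to 204 bases before the start. No match was found in the Cxcl9 window, and the 100 bases before its start are shown. The stretch shown for its neighbour Cxcl10 on chromosome 5 covers another position, 243 to 174 bases before the start. The matches of Gbp2 and Irgm1 lay in an exon of another annotated transcript.

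**Figure D1:**
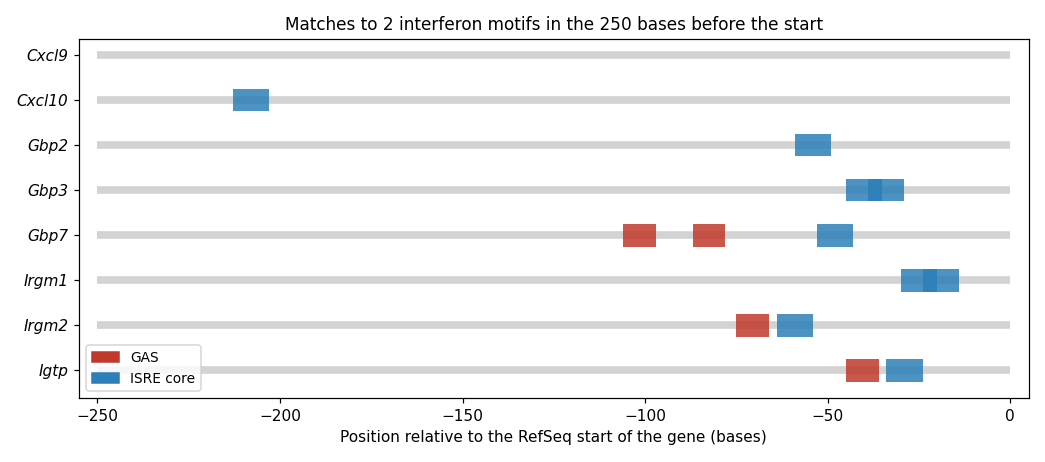
Positions of the matches in the 250 bases before the RefSeq start of each of 8 genes (x axis, bases; red, GAS; blue, ISRE core; grey, window searched). Apart from Cxcl10 at 213 bases, every match lies within 106 bases of the start, and Gbp7, Irgm2 and Igtp hold both motifs.

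Levels of different genes were compared per length. In CPM per kilobase of exon (GENCODE exons of GRCm38, another build than that of the counts), the median over the 18 Apc libraries was highest for Gbp2, at 19.6. Igtp at 13.4, Irgm1 at 13.2 and Irgm2 at 11.4 followed, and then Gbp3 at 5.81, Gbp7 at 3.21, Cxcl9 at 2.61 and Gbp4 at 1.78. Cxcl10 at 0.855 and Gbp6 at 0.474 were the lowest of the 10. In the FMT table the medians per kilobase were 45.9 for Gbp2, 37.1 for Igtp, 3.88 for Cxcl10, 3.13 for Cxcl9 and 1.18 for Gbp6. Of the 50-base stretches of the Gbp6 transcripts, 70.7% also occur in transcripts of other genes, first Gm43302 and then Gbp10 and Gbp4. Reads from such stretches may fit several genes. How the authors' counting treated them was not examined, so the level of Gbp6 is uncertain. For the other 9 genes the share of such stretches was at most 12.7%, for Gbp7.

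In the Apc table all 10 genes were higher on average on black rice than on control diet, as were 49.1% of all genes, but the libraries of a group lay far apart and none of the 10 passed the test. Black rice F replicates 1 and 2 and black rice M replicate 3 were among the highest 3 of 18 libraries for 10, 9 and 8 of the genes, while black rice M replicate 2 was among the lowest 3 for 7. The edgeR quasi-likelihood test called 3 of 21624 genes between the diets (0.0139%, Benjamini-Hochberg adjusted p under 0.05), and 0 of the 10. At an unadjusted p under 0.05, 2 of the 10 were higher, Gbp2 and Gbp7, against 4.21% of all genes. The median log2 difference of the 10 was 0.96, and over all genes tested it was -0.01.

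Of the chemokines, Cxcl9 measured 50.7, 40.3 and 2.11 CPM in the black rice F libraries and 7.35, 1.13 and 68.4 CPM in the black rice M libraries. In control libraries it measured 45.2, 7.48 and 21.2 CPM (F) and 1.52, 9.27 and 12.7 CPM (M). The 2 diets overlapped over nearly their whole range, and 3 of 6 black rice libraries were above the control mean of 16.2 CPM. The log2 difference was 0.995 (SE 0.85, edgeR adjusted p = 0.707), and it turned to -0.23 without black rice M replicate 3. Cxcl10 measured 7.71, 9.62 and 0.752 CPM (black rice F) and 7.28, 0.445 and 20.5 CPM (black rice M). Its control libraries held 6.77, 1.63 and 4.26 CPM (F) and 0.696, 1.60 and 2.22 CPM (M), so 4 of 6 black rice libraries were above the control mean of 2.86 CPM. Its log2 difference was 1.57 (SE 0.74, edgeR adjusted p = 0.489).

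Among the guanylate-binding proteins, Gbp7 came nearest to the threshold. It measured 71.9, 58.2 and 19.98 CPM (black rice F) and 19.9, 10.6 and 43.1 CPM (black rice M), against 22.4, 17.9 and 22.4 CPM (control F) and 13.2, 12.6 and 18.1 CPM (control M). Black rice M replicate 2 was below every control library, and the other 5 black rice libraries were above the control mean of 17.8 CPM. The log2 difference was 1.02 (SE 0.34, edgeR adjusted p = 0.355). Gbp2, which ranks first per kilobase, measured 215, 139 and 42.3 CPM (black rice F) and 84.2, 21.6 and 145 CPM (black rice M), against 38.6 to 66.2 CPM in control F and 25.6 to 57.4 CPM in control M. Its log2 difference was 1.16 (SE 0.43, edgeR adjusted p = 0.396), with 4 of 6 black rice libraries above the control mean. Gbp3, Gbp4 and Gbp6 had log2 differences of 0.72, 0.68 and 0.80, with edgeR adjusted p of 0.547, 0.523 and 0.657.

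The immunity-related GTPases were high and low in much the same libraries. Igtp, which with Irgm1 and Irgm2 regulates the other GTPases of the family, measured 134, 104 and 13.4 CPM (black rice F) and 45.0, 9.38 and 87.9 CPM (black rice M). Its control libraries held 77.7, 29.8 and 28.3 CPM (F) and 9.01, 28.2 and 25.7 CPM (M). The log2 difference of Igtp was 1.02 (SE 0.57, edgeR adjusted p = 0.551), and those of Irgm2 and Irgm1 were 0.93 (SE 0.46, edgeR adjusted p = 0.511) and 0.58 (SE 0.40, edgeR adjusted p = 0.633). Without black rice M replicate 3 the median of the 10 was 0.60.

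**Figure D2:**
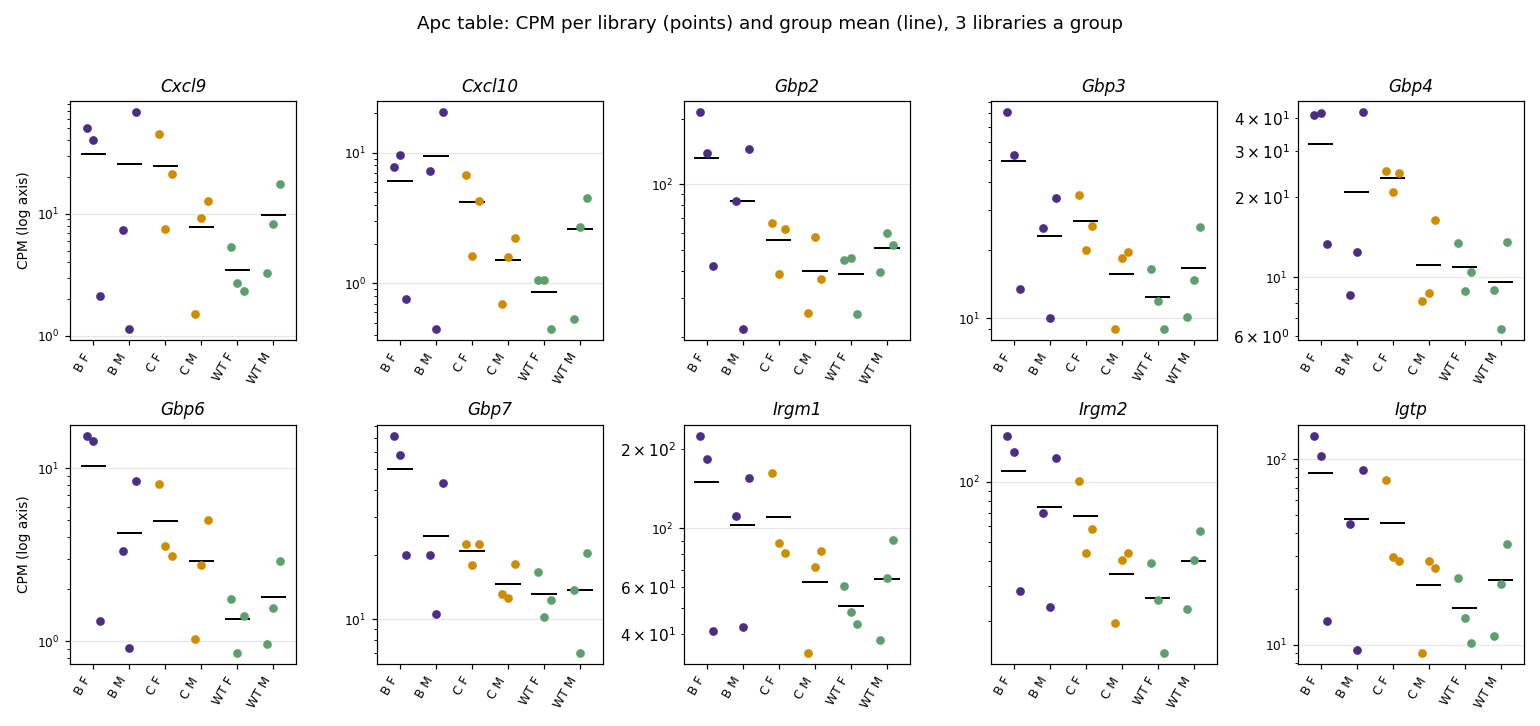
CPM of each gene in the 18 Apc libraries (points, log axis) with the group mean (line), by diet or WT and by the letter F or M, 3 libraries a group. The black rice points spread widest, for Cxcl9 from 1.13 to 68.4 CPM among the M libraries, and overlap the control and WT points.

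Within a letter, the 10 were again all higher on average, with a median of 0.79 in F, where 50.5% of all genes were higher, and 1.01 in M, where 48.3% were. The edgeR test within F called 0 of 21624 genes (0%), although 2215 (10.2%) had an unadjusted p under 0.05. DESeq2 called 201 genes there and limma-voom 0. Within M edgeR called 7 genes (0.0324%), none of them among the 10. At an unadjusted p under 0.05, 1 of the 10 was higher in F, Gbp7 (log2 1.26, SE 0.48, edgeR adjusted p = 0.41), against 4.51% of all genes. In M it was Cxcl10 (log2 2.66, SE 1.09, edgeR adjusted p = 0.515), against 3.67%. Tested directly, the diet difference in F minus that in M gave 0 calls among 21624 genes (0%) in edgeR, with 0 of the 10 at an unadjusted p under 0.05 against 8.89% of all genes. It was above 0 for 4 of the 10 and for 51.2% of all genes, and Cxcl10 had the smallest adjusted p (log2 -2.18, SE 1.47, edgeR adjusted p = 0.706). DESeq2 called 132 genes there and limma-voom 0, none of them among the 10. Cxcl9 within F depended on single libraries: its log2 difference was 0.30 with all 3, -0.25 without black rice F replicate 1 and -0.28 in limma-voom.

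With F and M pooled, WT had the lowest mean of the 3 arms for all 10 genes. Among the M libraries alone, WT was above control for 7 of the 10, such as Cxcl9 (9.69 against 7.84 CPM) and Gbp2 (50.8 against 39.9 CPM). Cxcl9 measured 5.33, 2.71 and 2.33 CPM in WT F and 3.28, 8.27 and 17.5 CPM in WT M. Igtp measured 23.0, 13.9 and 10.2 CPM in WT F and 11.1, 21.3 and 34.7 CPM in WT M. WT M replicate 3 was the highest WT library for both. Ordered by mean CPM, the lowest of the 6 groups was WT F for 9 genes and WT M for Gbp4. The highest was black rice F for 9 genes and black rice M for Cxcl10. In none of the 10 genes did any of the 5 pairs of neighbouring groups in that order lie apart: their libraries overlapped.

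Black rice against WT gave differences of 1.09 to 2.31 on the log2 scale (median 1.43; all genes 0.00), and control against WT 0.05 to 1.27 (median 0.59; all genes 0.00). All 10 were above 0 in both, as were 50.1% of all genes for black rice and 50.9% for control. The 2 comparisons share the WT libraries. Against WT, edgeR called 3 genes for black rice (0.0139%) and 0 for control (0%), none of them among the 10. All 10 had an unadjusted p under 0.05 for black rice, against 3.28% of all genes that were higher at that p, and none did for control, against 2.21%. The 10 are not separate results, since they varied together between libraries. Black rice F replicates 1 and 2 and black rice M replicate 3 held most of their highest levels. Gbp7 was closest (log2 1.38, SE 0.34, edgeR adjusted p = 0.436), with 5 of 6 black rice libraries above the WT mean of 13.4 CPM, followed by Gbp4 (log2 1.31, SE 0.36, edgeR adjusted p = 0.580). DESeq2 called 2 of the 10 for black rice, Gbp7 (log2 1.38, adjusted p = 0.0177) and Gbp6 (log2 2.08, adjusted p = 0.0497). Of all genes, 918 (4.25%) had an unadjusted p under 0.05 in edgeR for control against WT, and DESeq2 called 24 genes and limma-voom 0.

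The rest of the pathway was compared with WT in the same way, with 0 genes of any list called. The other GTPases were higher in 10 of 10 for black rice (median 1.35) and 9 of 10 for control (median 0.74). Gbp10 (log2 3.27, SE 0.86, edgeR adjusted p = 0.58) and Tgtp1 (log2 3.08, SE 0.81, edgeR adjusted p = 0.58) were first by p for black rice. The type I list was higher in 19 of 19 in both comparisons, with medians of 1.36 and 0.63. Ifng, at 0 to 0.0511 CPM in WT libraries, had log2 differences of 3.14 (SE 1.17) and 1.66 (SE 1.35), and Gbp5 of 1.16 (SE 0.37) and 0.43 (SE 0.37). Of the 18 T and NK markers, 8 had a log2 difference above 0 for black rice and 18 for control, and their part in the levels of the 10 genes was not tested. Cxcr3 had log2 differences of -0.06 (SE 0.27) for black rice and 0.81 (SE 0.27) for control.

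The spread inside groups was large for these genes in the Apc table. The SD of log2(CPM + 0.5) within groups was 1.75 for Cxcl9, 1.34 for Cxcl10 and 1.17 for Igtp, and 0.67 for Gbp7, the least. The median over 10988 genes in the same range of levels was 0.268, and the 10 lay between percentiles 92.8 and 99.5 of those genes. In black rice M the highest Cxcl9 library stood 60.5-fold over the lowest. In the AOM table the SDs were 0.25 to 0.68 against a median of 0.383, and in the FMT table they were 0.16 to 0.53 against 0.198.

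The 10 varied together between libraries of a group. After centring on group means, the correlation of each gene with the mean of the other 9 was 0.75 to 0.98 over the 18 Apc libraries, with Gbp4 the lowest and Cxcl9 the highest. Over the 11 AOM libraries it was 0.54 to 0.97, and over the 8 FMT libraries -0.32 to 0.92. Gbp6 had the negative value there, while Irgm2 and Gbp7 were above 0.9. Libraries of a table share depth scaling and whatever cells they hold, so these values describe the libraries and carry no test. The 10 genes outside the list with the highest correlation to its mean over all 37 libraries, among 19794 genes, were Iigp1 (0.97), Tap1 (0.95), Nlrc5 (0.93), Zbp1, Tgtp1, BC023105 and AC151990.1 (0.91 each), Tgtp2 (0.89), Parp9 and Stat2 (0.88 each). Within the Apc, AOM and FMT tables taken singly, Iigp1 stood at 0.98, 0.89 and 0.97. Other genes differed between tables, such as Stat2 at 0.89, 0.86 and 0.27 and BC023105 at 0.95, 0.43 and 0.88. Tap1 carries peptides for class I antigen presentation, which Nlrc5 switches on, and Tgtp1 and Tgtp2 are further immunity-related GTPases.

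The mean of the type I interferon response list (19 genes such as Ifit1, Mx1 and Oas2) and that of the 10 correlated at 0.81 over the Apc libraries, and that of 18 T and NK cell markers at 0.84. Both were high in black rice F replicates 1 and 2 and in control F replicate 1. Their mean log2 levels were 6.07, 5.81 and 5.22 for the 10 and 6.16, 5.85 and 5.96 for the type I list. In black rice M replicate 3 the mean log2 level was 5.76 for the 10, the third highest of 18 libraries, and 4.09 for the type I list. Ifit1, which type I interferons induce, stood at 20.5 CPM there and Cxcl9 at 68.4 CPM. In black rice M replicate 1 the type I list stood at 5.68 and the 10 at 4.49, with 0 of the 10 among their highest 3 libraries. Ifit1 measured 282 CPM in that library, Cxcl10 7.28 CPM and Cxcl9 7.35 CPM. Ifng itself, the gene of interferon gamma, was highest in black rice M replicate 3 at 0.769 CPM and at 0 in black rice F replicate 3 and black rice M replicate 2, where the 10 were low. It was also at 0 in control M replicate 1, the lowest control library, and in control M replicate 3, which was not low.

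**Figure D3:**
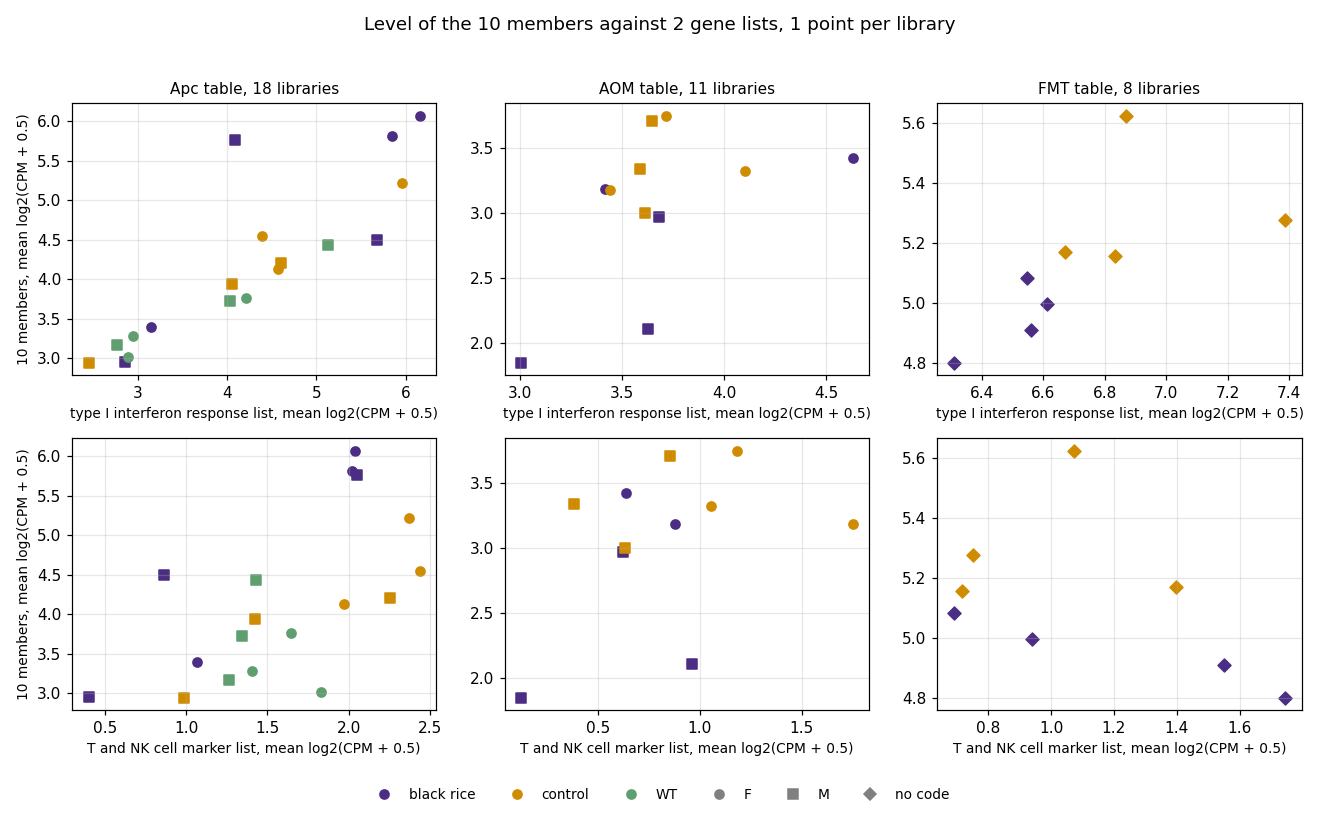
Mean log2(CPM + 0.5) of the 10 genes (y axis) against that of 19 type I interferon response genes (top row, x axis) and 18 T and NK cell markers (bottom row, x axis), 1 point per library, in the 3 tables. In the Apc panels the points rise together (within-group correlation 0.81 and 0.84), and in the FMT panel of T and NK markers they do not (-0.35).

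The rest of the pathway did not share 1 direction in the Apc diet comparison. Of 13 genes of interferon gamma signalling, 7 were higher and 6 lower on black rice, with 0 called. By p the first were the kinase gene Jak2 (log2 0.31, SE 0.09, edgeR adjusted p = 0.307), the receptor chain Ifngr2 (log2 -0.29, SE 0.18) and Irf1 (log2 0.40, SE 0.27). Ifng (log2 1.48, SE 1.02) did not pass. The other GTPases of both families were higher in 9 of 10, with 0 called and Gbp2b (log2 1.80, SE 0.62, edgeR adjusted p = 0.367), Tgtp1 (log2 1.95, SE 0.77) and Gbp10 (adjusted p 0.422) first by p. Gbp5, which promotes inflammasome assembly, had a log2 difference of 0.73 (SE 0.37). Of 20 other interferon gamma targets, 9 were higher and 11 lower. They included the checkpoint ligand Cd274 (log2 0.86, SE 0.28, edgeR adjusted p = 0.333), Wars (log2 0.33, SE 0.21), the class II invariant chain Cd74 (log2 -0.49, SE 0.34) and Cxcl11 (log2 0.49, SE 0.74). The type I list was higher in 19 of 19 (median 0.52), with 0 called and Mx1 (log2 1.36, SE 0.49, edgeR adjusted p = 0.396), Ifit2 (log2 1.15, SE 0.65) and Zbp1 (log2 0.92, SE 0.58) first by p.

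The receptor Cxcr3 lay on the other side, averaging 1.70 CPM in the black rice libraries against 3.11 CPM in the controls (log2 -0.87, SE 0.27, edgeR adjusted p = 0.323), lower in 5 of 6 black rice libraries. Of 14 genes tested for CXCR3 and other chemokines, 11 were lower, among them Cxcl12 (-0.53, edgeR adjusted p = 0.322) and Cxcl13 (-1.08, edgeR adjusted p = 0.398). Of 18 T and NK markers, 14 were lower on black rice with 7 at an unadjusted p under 0.05, against 6.06% of all genes that were lower at that p, and 0 called. Their sum ran from 37.5 to 83.6 CPM in black rice F, 22.5 to 88.7 in black rice M, 83.1 to 135 in control F and 41.4 to 111 in control M, and no marker was at 0. All 10 B and plasma cell markers were lower, with a median of -1.32 and 5 at an unadjusted p under 0.05. Their sum was 1001 to 2037 CPM in black rice F and 4814 to 7873 in black rice M, against 5410 to 14331 in control F and 6877 to 10916 in control M. Of 14 macrophage and dendritic cell markers, 12 were lower, and all 10 smooth muscle markers were higher. In bulk libraries, fewer cells of a type and less RNA per cell cannot be told apart, and the part of these cell types in the levels of the 10 genes was not tested.

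In the AOM table the difference had the opposite sign. With F and M pooled, all 10 genes were lower on average on black rice, with log2 differences from -1.88 (Cxcl9) to -0.04 (Irgm1), while 46.5% of all genes were higher. This direction chose Cxcl9 and Cxcl10, so it is a description. Among the M libraries the black rice mean was below the control mean for all 10. Among the F libraries it was above for Gbp3, Gbp4, Gbp6, Gbp7 and Irgm2, and below for Cxcl9, Cxcl10, Gbp2, Irgm1 and Igtp. Over all genes, edgeR called 0 of 21895 genes (0%). At an unadjusted p under 0.05 there were 671 genes (3.06%), 506 of them lower (2.31%), DESeq2 called 13 genes and limma-voom 0. The median log2 difference was -0.44 for the 10 and -0.02 for all genes.

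Cxcl9 measured 4.60 and 1.71 CPM in black rice F and 0.897, 0.537 and 2.49 CPM in black rice M. Control libraries held 5.12, 4.47 and 11.4 CPM (F) and 6.52, 11.2 and 7.19 CPM (M). All 5 black rice libraries were below the control mean of 7.64 CPM, and only black rice F replicate 1 reached into the control range. Cxcl10 measured 3.50 and 0.947 CPM (black rice F) and 0.939, 0.844 and 2.21 CPM (black rice M), against 2.69, 2.97 and 5.29 CPM (control F) and 1.92, 4.21 and 2.12 CPM (control M). The log2 differences were -1.88 (SE 0.44) and -0.85 (SE 0.42). That of Cxcl10 was -1.48 without black rice F replicate 1 and -0.52 without black rice F replicate 2. The ratio of Cxcl9 to Cxcl10 per kilobase ran from 1.98 to 2.53 in control M and from 0.475 to 0.844 in black rice M. In F the diets overlapped, with 1.12 to 1.61 in control and 0.983 to 1.35 in black rice. Since these levels chose the 2 genes, the ratios are a description.

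Among the GTPases the low AOM libraries were black rice M replicates 1 and 2. They ranked among the lowest 3 of 11 for 9 and for all 10 of the genes. Gbp2 measured 30.01 and 41.0 CPM (black rice F), 9.41, 11.8 and 29.5 CPM (black rice M), 39.6, 43.4 and 57.0 CPM (control F) and 24.1, 40.4 and 42.4 CPM (control M), a log2 difference of -0.70 (SE 0.25). Black rice M replicates 1 and 2 were below every control library, and all 5 black rice libraries were below the control mean of 41.2 CPM. Gbp3 showed the 2 letters on opposite sides, with 11.8 and 12.2 CPM in black rice F beside 7.68 to 12.02 CPM in control F, and 2.01, 3.02 and 6.22 CPM in black rice M beside 7.397 to 13.7 CPM in control M. Its pooled log2 difference was -0.45 (SE 0.26). The other GTPases ranged from -0.56 for Gbp4 to -0.04 for Irgm1, with Igtp at -0.39 (SE 0.21) and Irgm2 at -0.30 (SE 0.21). With the library left out put back, the median of the 10 was -0.03, Cxcl9 stood at -1.13 and Gbp6 (0.11), Irgm1 (0.32) and Igtp (0.43) were above 0.

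The type I interferon genes did not share this direction in the AOM table: 13 of 19 were higher on black rice (median 0.08), led by Irf7 (0.73, SE 0.35), which was above the control mean in 5 of 5 black rice libraries. Of the other guanylate-binding proteins and immunity-related GTPases tested, 7 of 9 were lower, with Gbp2b at -1.13 (SE 0.42) and Gbp5 at -0.66 (SE 0.33). The antigen presentation genes Cd74 (-0.98, SE 0.32) and Nlrc5 (-0.71, SE 0.29) and the tryptophan-degrading enzyme Ido1 (-0.90, SE 0.32) were the first of the other targets by p, of which 16 of 20 were lower. Irf1 (-0.04, SE 0.23) and Cxcl11 (-0.01, SE 0.37) were near 0, and Ifng, at most 0.107 CPM, was too low to be tested. Cxcr3 averaged 0.551 CPM in the black rice libraries against 1.11 CPM in the controls (log2 -0.79, SE 0.39), lower in 5 of 5. All 10 B and plasma cell markers (median -1.32), all 14 macrophage and dendritic cell markers (median -0.57) and 16 of 18 T and NK markers (median -0.42) were lower as well. The B and plasma cell sum spanned 2340 to 3002 CPM in black rice F, 1426 to 3604 in black rice M, 5433 to 10935 in control F and 1398 to 6716 in control M. Over the 11 libraries the level of the 10 correlated with other interferon gamma targets at 0.89, signalling genes at 0.88, other GTPases at 0.82 and type I genes at 0.43. Its correlation was 0.94 with endothelial markers, 0.86 with fibroblast markers and 0.10 with T and NK markers. The part of these cell types in the result was not tested.

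In the FMT table all 10 genes were again lower on average on black rice, with log2 differences from -1.14 (Cxcl10) to -0.10 (Gbp2), while 51.3% of all genes were higher. This direction also chose the 2 chemokines. Over all genes, edgeR called 0 of 20831 genes (0%). At an unadjusted p under 0.05 there were 1653 genes (7.94%), DESeq2 called 136 genes and limma-voom 0. The median log2 difference was -0.39 for the 10 and 0.01 for all genes.

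In the 4 black rice libraries Cxcl9 stood at 8.71, 8.47, 8.71 and 7.44 CPM, and in the controls at 13.5, 10.1, 10.3 and 12.4 CPM, a log2 difference of -0.53 (SE 0.14). Cxcl10 stood at 3.67, 4.25, 8.63 and 4.35 CPM against control levels of 12.1, 8.85, 12.8 and 10.6 CPM, a log2 difference of -1.14 (SE 0.28). For both, every black rice library was below every control library. Over all genes 1.56% were lower without overlap, and since these levels chose the 2 genes, nothing is read from that share. Black rice replicate 3 came close to the lowest control for Cxcl10 and stood apart from the other black rice libraries. Here Cxcl9 did not exceed Cxcl10 per kilobase in control libraries, where the ratio ran from 0.600 to 0.871, and on black rice it ran from 0.754 to 1.77.

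The GTPases overlapped between the FMT diets. Igtp stood at 61.3, 64.1, 66.6 and 83.1 CPM in the black rice libraries, against 128, 113, 76.3 and 73.7 CPM in the controls, a log2 difference of -0.58 (SE 0.20). Irgm1 stood at 137, 157, 151 and 142 CPM, against control levels of 203, 150, 157 and 188 CPM, a log2 difference of -0.30 (SE 0.12). All 4 black rice libraries were below the control mean for 6 of the 8 GTPases, the exceptions being Gbp2 (2 of 4) and Gbp7 (3 of 4). Control replicate 1 was the highest or second highest library for all 10 genes, with Irgm2 at 180 CPM against 83.3 to 127 CPM in the other 7. Without it the median of the 10 was -0.27, and the log2 difference of Gbp2 turned from -0.10 to 0.18.

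**Figure D4:**
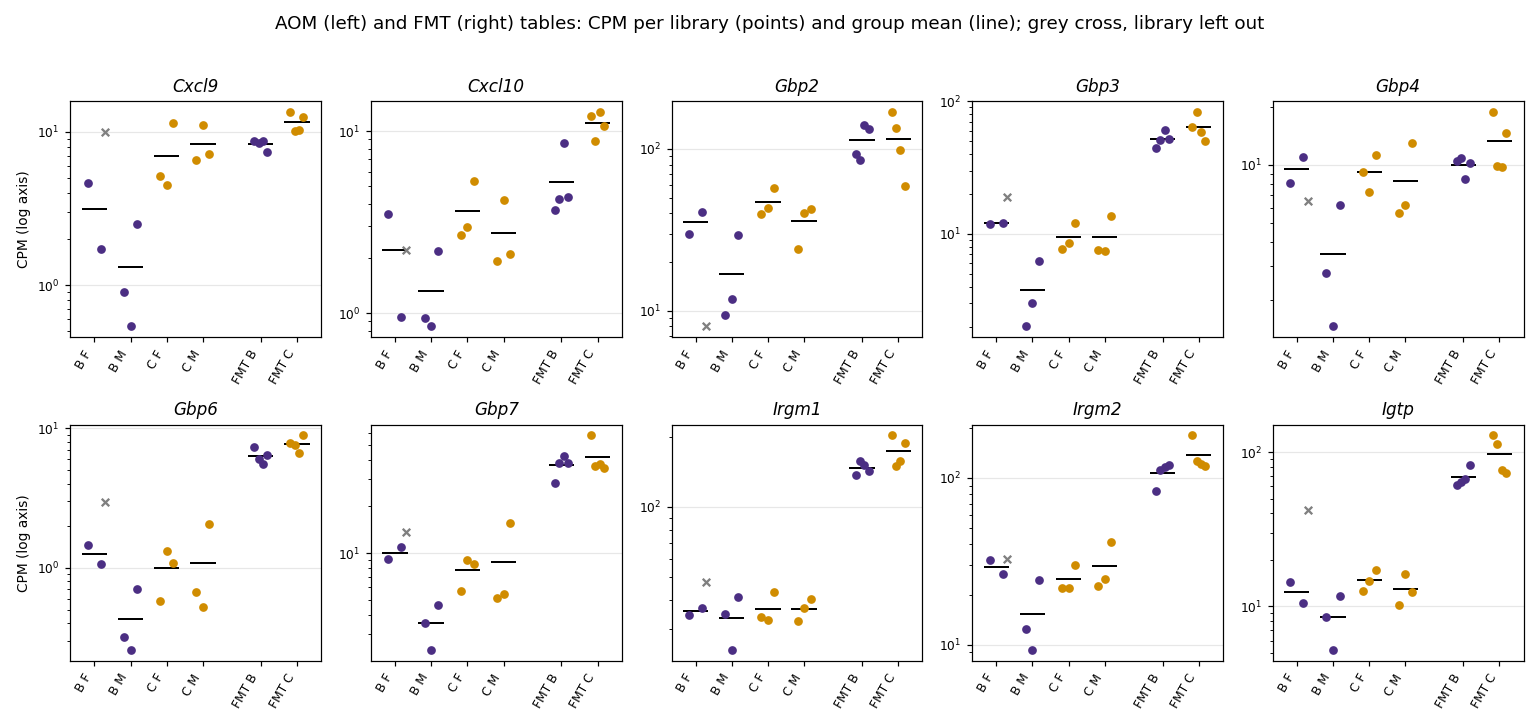
CPM of each gene in the AOM groups (left of each panel, by diet and letter) and the FMT groups (right), as points on a log axis with the group mean as a line. The grey cross is the AOM library that was left out. Cxcl9 and Cxcl10, which these levels chose, do not overlap between the FMT diets, where 1.56% of all genes were lower without overlap. The lowest AOM points, crosses aside, are those of black rice M.

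All 19 type I interferon genes were lower on black rice in the FMT table (median -0.52), and 9 of them did not overlap between the diets, beside 1.56% of all genes. Rtp4 (-0.50, SE 0.10), Oas1a (-0.52, SE 0.11) and Oas2 (-0.90, SE 0.21) were first by p. Ifng averaged 0.117 CPM in the black rice libraries and 0.203 CPM in the controls (log2 -0.87, SE 0.31). Irf9, the DNA-binding part of ISGF3, had a log2 difference of -0.37 (SE 0.09). Tap1 (-0.69, SE 0.20), Nlrc5 (-0.52, SE 0.17) and the immunoproteasome gene Psmb9 (-0.47, SE 0.16) were first among 20 other targets, of which 16 were lower. Tgtp2 (-0.72, SE 0.26), Ifi47 (-0.37, SE 0.14) and Gbp9 (-0.50, SE 0.19) led the other GTPases, of which 9 of 10 were lower. The monocyte chemokines Ccl2 (-0.97, SE 0.21) and Ccl7 (-1.26, SE 0.34) had lower means too, and Irf1 (-0.22, SE 0.17), Gbp5 (-0.29, SE 0.21), Cxcl11 (-0.39, SE 0.25) and Cxcr3 (-0.50, SE 0.31) had smaller differences against their error. Of 12 genes tested for CXCR3 and other chemokines, 6 were higher and 6 lower. T and NK markers were higher on black rice in 14 of 18, with a sum of 26.3 to 86.2 CPM against 27.2 to 56.3 CPM on control, and macrophage and dendritic cell markers were lower in 13 of 14. All 10 B and plasma cell markers were higher here (median 0.61). The part of these cell types in the result was not tested.

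**Figure D5:**
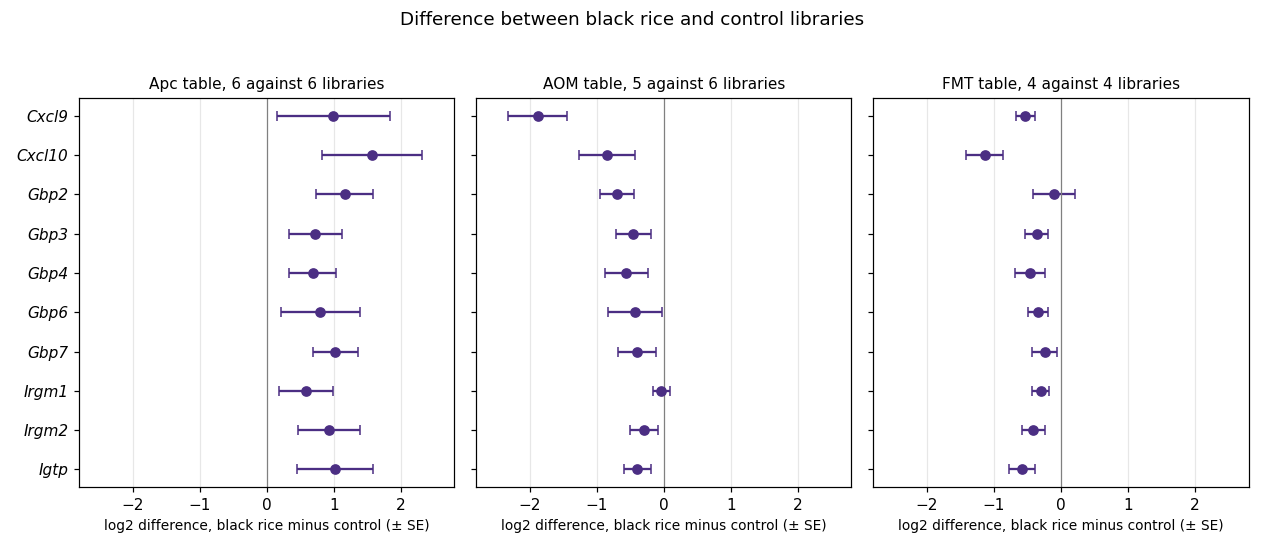
Difference between black rice and control in each table (x axis, log2, points with SE bars) for the 10 genes. All 10 points lie above 0 in the Apc panel and below 0 in the AOM and FMT panels, and the SE bars are widest for Cxcl9 and Cxcl10 in the Apc panel.

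F and M libraries were compared over the diets, a contrast on which the list was not chosen. Of the 10, 9 were higher in F in the AOM table, as were 49.2% of all genes, with a median of 0.54 against -0.01 for all genes, and edgeR called 8 of 21895 genes (0.0365%), none of them among the 10. Gbp2 (log2 0.65, SE 0.25, edgeR adjusted p = 0.583), Gbp3 (0.75, SE 0.26, edgeR adjusted p = 0.577) and Gbp4 (0.74, SE 0.31, edgeR adjusted p = 0.583) had an unadjusted p under 0.05, against 5.6% of all genes that were higher at that p, and all 5 F libraries were above the M mean for each. Irgm1 was the exception at -0.06 (SE 0.13). On control diet alone, the F mean was below the M mean for 6 of the 10, among them Cxcl9 (6.998 against 8.29 CPM), Gbp7 (7.75 against 8.76 CPM) and Irgm2 (24.6 against 29.5 CPM). On black rice it was above for all 10, as for Gbp3 (11.97 against 3.75 CPM). In the same contrast Gbp2b, another guanylate-binding protein, had a log2 difference of 1.84 (edgeR adjusted p = 0.571), and all 14 macrophage and dendritic cell markers were higher in F, with 9 at an unadjusted p under 0.05. So were all 10 B and plasma cell markers (median 1.28), all 7 endothelial, all 7 fibroblast and 16 of 18 T and NK markers, while all 14 epithelial markers were lower. The part of these cell types in the levels of the 10 genes was not tested. Of the 10, 9 were also higher in F in the Apc table, beside 51.3% of all genes, with a median of 0.30 and Gbp4 the largest at 0.53 (SE 0.29, edgeR adjusted p = 0.391), and edgeR called 16 genes (0.074%), none of them among the 10. Cxcr3 was higher in F there (0.64, SE 0.22, edgeR adjusted p = 0.216), above the M mean in 8 of 9 libraries, without passing.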

How the data were processed

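RNA was extracted with Trizol, captured with oligo(dT) and sequenced on DNBSEQ, per the labels. The authors deposited whole-number read counts per gene. Per the file headers, the AOM and FMT tables came from featureCounts 2.0.1 with paired reads over exons of the Ensembl 104 annotation of GRCm39, with no strand option, so reads from a gene and an antisense partner cannot be told apart; for the Apc table the program is not given in the sources used here. The submitters' processing notes also name fastp and HISAT2.

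Symbols were found for 52083 of 55416 gene IDs. CPM was computed over the total of each library, and AOM black rice F replicate 3 was left out. Each table was fitted with edgeR 4.0.16 (R 4.3.3) over all its groups: filterByExpr, TMM, quasi-likelihood F test, two-sided, adjusted over all genes tested; contrasts over both letters are means of the F and M differences. The fit was tested on simulated data. Alternatives were DESeq2 1.42.0, limma-voom (3.58.1), RLE factors, no low-count filter, only the groups compared, a replicate block and leaving out each library.

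The members and lists were chosen with earlier results of these data known. Named beside the 10 were Ifng, Irf1, Cxcr3, Cxcl11 and Gbp5, up to 3 genes of each list by smallest p where none passed, and the 10 genes with the highest correlation over group-centred log2 CPM, without Gm-number and Rik genes. Another gene under this rule is not reported here. Same-numbered libraries of a table correlated at -0.69 to 0.57, which does not settle whether the numbers pair samples. The main fits treated the libraries as unpaired. Promoters are from RefSeq, GRCm38.p6.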

Additional observations from a re-analysis of the deposited data

Results flagged for a closer look

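In groups of 4, 1 library can stand apart from the others by more than Dixon's 95% critical value, which chance gives in about 1 of 20 groups. The 20 sets of 4 values tested were the 10 genes in each FMT diet, and 3 had such a library. The sets share the same libraries, so they are not independent of each other. In the FMT table these were Cxcl10 in black rice replicate 3 (8.63 CPM), Gbp7 in control replicate 1 (57.7 CPM) and Irgm2 in the same library (180 CPM).

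Black rice libraries lay on opposite sides of the control mean in F and M of the AOM table for 4 genes. The F difference minus the M difference, as log2 ratios of means, was 1.69 for Gbp3, 1.69 for Gbp6, 1.70 for Gbp7 and 1.20 for Irgm2. That difference was not tested, and black rice F had 2 libraries there.

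The AOM library that was left out held 4 of the 10 genes above all 6 control libraries of its table: Gbp3 at 19.0 CPM, Gbp6 at 2.98 CPM, Irgm1 at 47.5 CPM and Igtp at 42.4 CPM. The highest control for Igtp was 17.3 CPM. Gbp2, at 8.002 CPM, was below the lowest control of 24.1 CPM. The hepatocyte markers of the library left out summed to 209145 CPM and its epithelial markers to 723 CPM. Its levels are therefore not comparable with those of the controls as levels of the same tissue. It was also shallow, with 16 reads of Gbp6 and 102 of Gbp3.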

How the results depend on the processing

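The diet medians of the 10 genes kept their sign under every alternative run: 0.60 to 1.20 in the Apc table with single libraries left out, -0.64 to -0.33 in the AOM table and -0.45 to -0.27 in the FMT table. With all 12 AOM libraries the median was -0.0283, and Irgm1 in F against M was 0.30. Counts of called genes varied most. With no low-count filter they were 23 for the Apc diets, 15 within F, 16 within M, 6 for F minus M and 6 for black rice against WT. DESeq2 called 202, 201, 151, 132 and 72 in that order, with 2 of the 10 in the last, and 24 for control against WT, 528 for F against M, 13 for the AOM diets, 74 for AOM F against M and 136 for the FMT diets. The AOM call held 1 of the 10 (Cxcl9) and the FMT call 1 (Cxcl10), but these differences chose both genes, so the calls are no test of them. For black rice against WT, RLE factors, limma-voom and a fit of only the groups compared called 0 genes, and the last also 0 within M and 1 for the Apc diets, as limma-voom did. Cxcl9 within F was -0.28 in limma-voom.

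Leaving out 1 library gave 1 to 6 called genes for the Apc diets, 0 to 4 within F, 0 to 2 within M, 0 to 7 for F minus M, 0 to 2 for black rice against WT, 10 to 67 for F against M and 0 to 1 for the FMT diets. Log2 differences then crossed 0 as follows. For the Apc diets, Cxcl9 ran from -0.23 to 1.44. Within F, Cxcl9 ran from -0.25 to 1.19, Cxcl10 from -0.0023 to 1.10 and Irgm1 from -0.0075 to 0.88. Within M, where the lowest values came without black rice M replicate 3, Cxcl9 ran from -0.77 to 2.26, Gbp4 from -0.0046 to 1.31 and Gbp6 from -0.34 to 1.13. For F minus M, Cxcl9 ran from -1.96 to 1.08, Gbp2 from -0.40 to 0.75, Gbp3 from -0.32 to 0.72, Gbp4 from -0.88 to 0.45, Gbp6 from -0.091 to 1.40, Irgm1 from -0.76 to 0.13, Irgm2 from -0.84 to 0.20 and Igtp from -0.86 to 0.40. For control against WT, Gbp2 ran from -0.16 to 0.17. For F against M, Cxcl9 ran from -0.22 to 0.90, Cxcl10 from -0.54 to 0.0531 and Gbp2 from -0.0528 to 0.33 in the Apc table, and in the AOM table Cxcl9 from -0.0295 to 0.79 and Cxcl10 from -0.15 to 0.80. For the AOM diets, Irgm1 ran from -0.0728 to 0.0627, and for the FMT diets Gbp2 from -0.32 to 0.18. The median of the 10 for F minus M ran from -0.75 to 0.53. Without crossing 0, the AOM diet difference of Cxcl10 ran from -1.48 to -0.52. The cause was not tested.

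With the replicate number as a block, the diet medians were 0.92 (Apc), -0.37 (AOM) and -0.37 (FMT), and 0 genes were called within M, 0 for black rice against WT and 10 for F against M. Pairing by number was neither shown nor excluded, and 4 of 18 Apc, 6 of 11 AOM and 2 of 8 FMT libraries correlated best with their own number.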
